A study of Caenorhabditis elegans with 6 samples.

Results

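The genes of cGMP signalling were followed in RNA recovered from the PVD and OLL neurons of Caenorhabditis elegans larvae, against RNA of whole larvae. The set held every gene named gcy, pde or cng with a number, together with odr-1, daf-11, tax-2, tax-4 and egl-4, and each gene was read through its probe set with the highest mean over the 6 arrays. It came to 46 of the 17118 genes on the array: 27 receptor-type guanylate cyclases, 7 soluble guanylate cyclases, 7 genes named pde, 4 cyclic nucleotide-gated channel subunits and 1 cGMP-dependent protein kinase. A further gene, cng-3, had no probe set named for it alone.

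The PVD and OLL group was 3 arrays of poly(A) RNA that came down with PAB-1, the poly(A) binding protein, which carried a 3X FLAG tag and was expressed from the ser-2prom3B promoter. The whole animal group was 3 arrays of total RNA from intact animals. Both groups were L3/L4 larvae grown at 25 °C on the bacterial strain Na22, and both RNAs were amplified with the NuGEN WT-Pico kit. The labels do not say whether the whole animals carried the tag. Tissue and kind of RNA changed together between the groups, so their parts in any difference cannot be told apart. PVD neurons are branched nociceptors of the body wall, and the OLL pair senses touch at the nose. In such pooled RNA, fewer cells of a type and less RNA per cell cannot be told apart either.

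Guanylate cyclases make the second messenger cGMP from GTP. In many worm sensory neurons a receptor-type cyclase in the cilium, or a soluble cyclase that binds oxygen through heme, sets the cGMP level, which opens a channel made of TAX-4 and TAX-2 and activates the kinase EGL-4. Phosphodiesterases break cyclic nucleotides down. Most cyclases of the worm are known from a few sensory neurons each: gcy-8, gcy-18 and gcy-23 from the thermosensory neuron AFD, gcy-9, gcy-31 and gcy-33 from the gas-sensing neuron BAG, gcy-32, gcy-34, gcy-35, gcy-36 and gcy-37 from the oxygen-sensing neurons URX, AQR and PQR, and a larger group from the salt-sensing ASE pair.

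All values are log2 signals as deposited, and a difference is the PVD and OLL mean minus the whole animal mean, with limma's moderated standard error. A gene was called at a limma adjusted p under 0.05 over all 22548 probe sets. The no-target level of an array was the 95th percentile of 32 control probe sets designed to bacterial and yeast sequences, which worm RNA should not match. Across the PVD and OLL arrays it ran from 2.28 to 2.44, and across the whole animal arrays from 2.95 to 3.43. All 32 of these controls were themselves lower on the PVD and OLL arrays, with a median difference of -0.50 and a range from -1.28 to -0.15. That no RNA matching these controls was added to the samples is assumed here and was not tested. On that assumption a dim gene could read lower in the PVD and OLL group to the same degree as a probe set with nothing to bind. The labelled cell type showed in its markers: 9 of the 12 markers of these neurons rose and 0 fell, and 7 of 13 pan-neuronal genes rose and 0 fell, beside 8.1% of all genes called higher. Markers of these neurons that were not called were mec-10 (0.78, limma adjusted p = 0.0587), F49H12.4 (0.03, limma adjusted p = 0.945) and ser-2. For ser-2, the gene whose promoter drove the tag, the groups overlapped (0.72, limma adjusted p = 0.202).

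The split of calls over all probe sets depended on the scale. On the deposited values 2099 were higher and 964 lower, so 68.5% of calls were higher. A second quantile normalization gave a share of 54.2%, and cyclic loess 52.6%. Arrays centred on their own medians gave 43.1%, arrays centred on the no-target controls 94.3%, and arrays centred on the bioB and bioC spikes 99.5%. These centrings moved the median difference of all probe sets, which was -0.03, by -0.20, 0.45 and 1.24. Directions below are relative to the deposited scale.

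Few of the 46 genes differed past the test. The phosphodiesterase gene pde-2 rose, and the cyclase genes gcy-34, gcy-29 and gcy-19 were called lower, although on the scale of the bioB and bioC spikes gcy-34 and gcy-19 lay above 0 and gcy-29 was at -0.02. That is 1 gene higher and 3 lower, or 8.7% of the set, beside 12.8% of all genes called in either direction, 8.1% higher and 4.66% lower. Before adjustment, p was under 0.05 for 2 genes that were higher and 14 that were lower, beside 16.8% and 14.7% of all genes. The groups did not overlap for 23 of the 46 genes, 5 higher and 18 lower, beside 40.3% of all genes, 18.4% higher and 21.9% lower. The median difference was -0.27 for the 46 genes and -0.07 for all genes. Of the 31 genes with a difference below 0, 27 lay inside the range of the no-target controls and 0 below it.

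**Figure D1:**
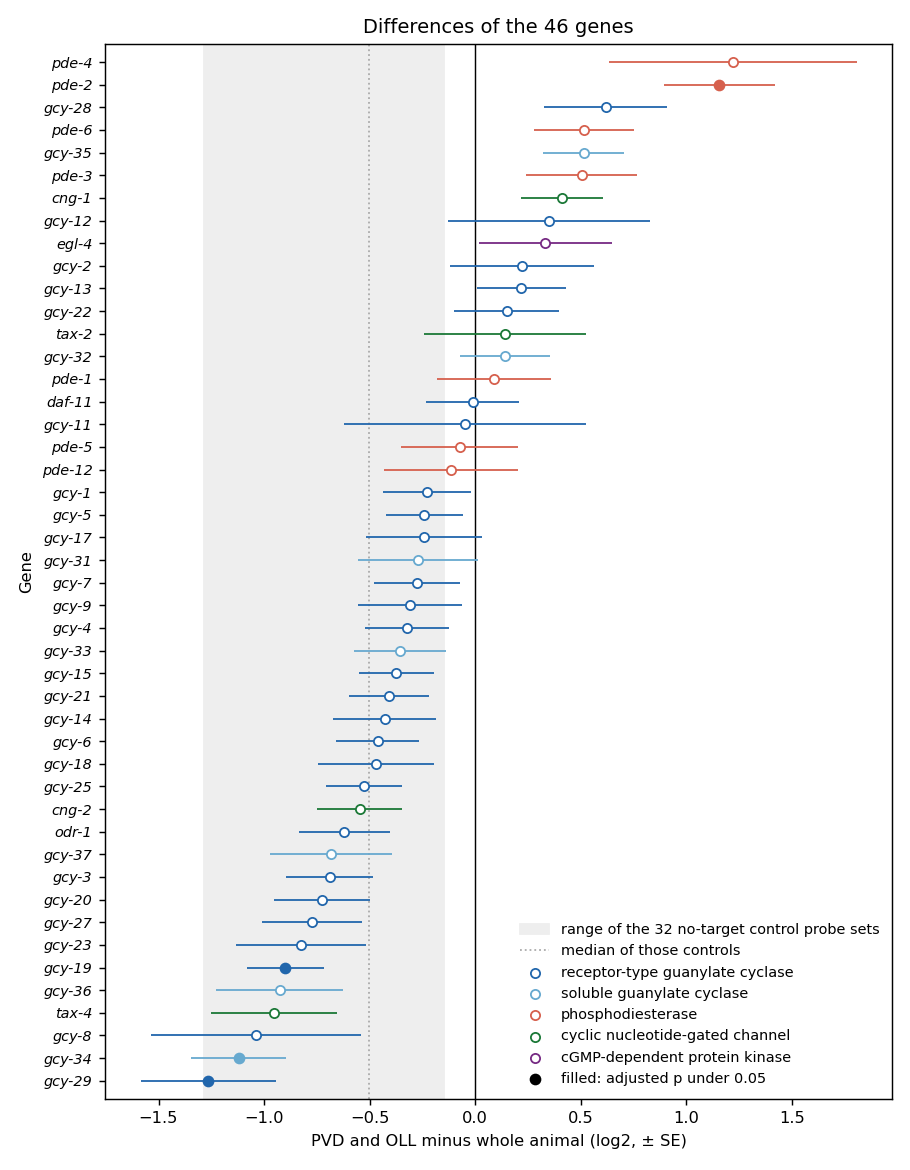
Difference of each of the 46 genes, PVD and OLL minus whole animal on the log2 scale, with limma's standard error, ordered by size and coloured by class. Filled points are the 4 genes called on the deposited scale (pde-2 higher, gcy-19, gcy-34 and gcy-29 lower, of which gcy-19 and gcy-34 lie above 0, and gcy-29 at -0.02, on the scale of the bioB and bioC spikes). The grey band is the range of the 32 no-target control probe sets, and no gene falls to the left of it.

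Many of the genes gave no more signal than the controls. Single PVD and OLL arrays had 25 to 27 of the 46 genes above the no-target level, and single whole animal arrays had 16 to 19. On all 3 PVD and OLL arrays 21 genes exceeded the level, 45.7% of the set beside 66.6% of all genes, and on all 3 whole animal arrays 10 genes, 21.7% beside 49.9%. Those 10 genes were egl-4, pde-2, pde-3, pde-4, pde-6, pde-12, gcy-12, gcy-28, gcy-34 and gcy-36, and all were above the level in the PVD and OLL group too. For 14 of the 46 genes, beside 17.3% of all genes, no array of either group exceeded the level, which says that the probe set gave no more signal than the controls, not that the transcript was absent. All 14 were cyclase genes: 12 receptor-type and 2 soluble.

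Among the enzymes that break down cyclic nucleotides, pde-2, pde-4 and pde-6 were read well above the controls in both groups. On the whole animal arrays pde-3 lay 0.20, 0.20 and 1.01 above the no-target level. Of the 6 phosphodiesterase genes, which leave out pde-12, 5 exceeded the no-target level on all PVD and OLL arrays and 4 on all whole animal arrays, beside 66.6% and 49.9% of all genes. Of the 6 genes 1 rose and 0 fell, beside 8.1% and 4.66% of all genes. Their median difference was 0.51, beside -0.07 for all genes. PDE-2 is a cGMP phosphodiesterase that acts with GCY-12 and EGL-4 in the control of body size. Replicates 1, 2 and 3 of the PVD and OLL group read 7.31, 7.22 and 6.70 for pde-2, against 6.29, 5.62 and 5.85 in whole animal replicates 1, 2 and 3; values of other genes follow the same order. Each PVD and OLL array lay above each whole animal array. The difference was 1.16 ± 0.26 (SE, n = 3 arrays per group, limma adjusted p = 0.0292), a 2.23-fold higher signal.

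A second probe set of pde-2 read 5.38, 6.07 and 6.24 in the PVD and OLL group, against 4.56, 4.45 and 4.02 in the whole animal. It too separated the groups, by 1.55 ± 0.28 (limma adjusted p = 0.0149). When single arrays were dropped, the first probe set lost its call in 4 of 6 fits (limma adjusted p from 0.025 to 0.114) and the second in 1 of 6, without PVD and OLL replicate 2 (0.0698). The first also lost it under a second quantile normalization (0.0761) and under cyclic loess (0.0658), with differences of 0.89 under each.

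The other phosphodiesterase genes did not pass the test. The cAMP phosphodiesterase gene pde-4 had 8.26, 8.31 and 7.34 in the PVD and OLL group, against 7.62, 7.28 and 5.35 in the whole animal. Whole animal replicate 3 stood far below the other two, and the groups overlapped (1.22 ± 0.59, limma adjusted p = 0.193). Its second probe set, whose name marks it as able to match several transcripts, was above the no-target level on all PVD and OLL arrays and on no whole animal array, with 3.51, 4.43 and 5.46 against 2.59, 3.31 and 2.14. Its mean PVD and OLL signal was 2.48-fold above the mean whole animal no-target level, but the difference did not pass the test (limma adjusted p = 0.0556). PVD and OLL replicate 1, at 3.51, lay close to the no-target level of whole animal replicate 2, 3.43. The signal of pde-6, which encodes a relative of the mammalian PDE8 enzymes, was 5.60, 5.95 and 5.50 in the PVD and OLL group, against 5.33, 4.81 and 5.37 in the whole animal. Its groups did not overlap, by a narrow margin (0.52 ± 0.24, limma adjusted p = 0.177).

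Both groups of pde-3, a relative of the mammalian PDE3 enzymes, overlapped: 4.51, 4.01 and 3.87 in the PVD and OLL group, against 3.29, 3.63 and 3.96 in the whole animal (0.50 ± 0.26, limma adjusted p = 0.225). For pde-1, of the calmodulin-dependent class, the signal was 3.28, 3.31 and 2.79 in the PVD and OLL group, against 2.58, 3.19 and 3.34 in the whole animal. It exceeded the no-target level on 3 PVD and OLL arrays and 1 whole animal array and differed by 0.09 ± 0.27 (limma adjusted p = 0.84). The gene pde-5 was above the level on 1 PVD and OLL array and 0 whole animal arrays and differed by -0.07 ± 0.28. The set also holds pde-12, whose human namesake removes adenosines from poly(A) tails in mitochondria and is no cyclic nucleotide phosphodiesterase. Its mean signal was 6.17 ± 0.60 for PVD and OLL, against 6.28 ± 0.21 for the whole animal (SD, n = 3 arrays each).

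**Figure D2:**
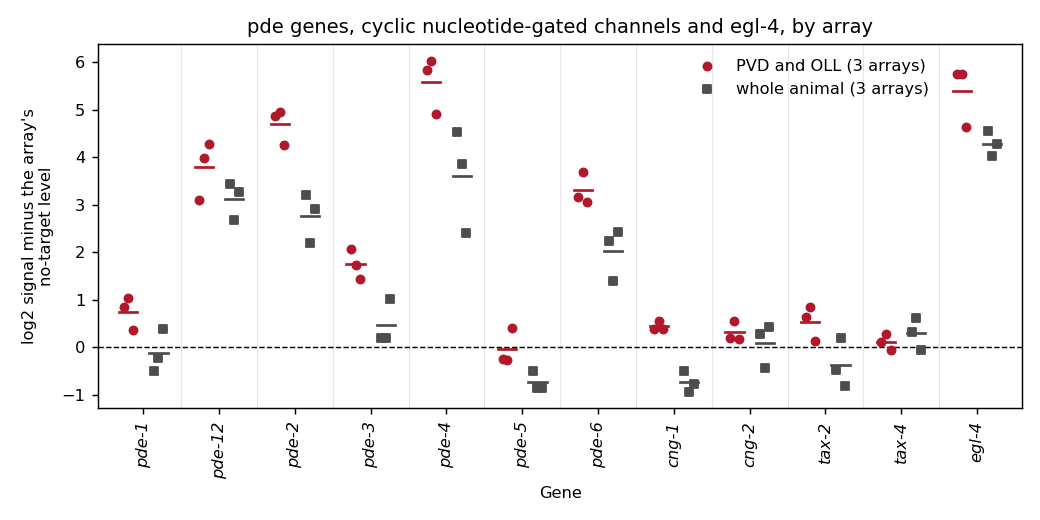
Signal minus the no-target level of the same array, log2, for the pde genes, the channel genes and egl-4. Points are single arrays, 3 PVD and OLL (circles, left) and 3 whole animal (squares, right), bars are group means and the dashed line is the no-target level. The pde genes other than pde-1 and pde-5 lie above the line on every array, whereas the channel genes lie near it.

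The kinase gene egl-4 was well above the controls in both groups. EGL-4 is the main cGMP-dependent protein kinase of the worm, with roles in body size, olfactory adaptation and sleep-like quiescence. Its signal was 8.18, 8.03 and 7.08 in the PVD and OLL group, against 7.63, 7.45 and 7.22 in the whole animal. PVD and OLL replicate 3 fell below every whole animal array, so the groups overlapped (0.33 ± 0.31, limma adjusted p = 0.487). The other egl-4 probe set gave 6.07, 6.49 and 6.40 against 5.58, 5.65 and 5.18, with no overlap. That probe set was called higher by 0.85 ± 0.22 (limma adjusted p = 0.0448), and dropping any 1 array ended the call (6 of 6 fits, limma adjusted p from 0.072 to 0.162).

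Subunits of the cyclic nucleotide-gated channels were close to the no-target level, and limma called 0 of the 4 in either direction, beside 12.8% of all genes. Before adjustment, p was under 0.05 for 0 that were higher and 2 that were lower, beside 16.8% and 14.7% of all genes. TAX-4 and TAX-2 form the channel that carries the sensory current in neurons such as AFD, ASE and AWC. The signal of tax-4 was 2.55, 2.56 and 2.38 in the PVD and OLL group, against 3.40, 4.04 and 2.90 in the whole animal. Each PVD and OLL array lay below each whole animal array, and 2 arrays of each group exceeded their no-target level (-0.95 ± 0.30, limma adjusted p = 0.0738). The other tax-4 probe set was above the level on 0 arrays of either group and differed by -0.06 ± 0.18.

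The partner gene tax-2 gave 3.07, 3.13 and 2.57 in the PVD and OLL group, against 2.60, 3.61 and 2.12 in the whole animal, with wide overlap (0.14 ± 0.38). For cng-1 the PVD and OLL arrays read 2.81, 2.83 and 2.83, against 2.58, 2.49 and 2.17 in the whole animal. It was above the no-target level on 3 PVD and OLL arrays and 0 whole animal arrays, and the groups did not overlap (0.41 ± 0.19, limma adjusted p = 0.186). cng-2 ran the other way, with 2.64, 2.83 and 2.61 in the PVD and OLL group, against 3.35, 2.98 and 3.39 in the whole animal (-0.55 ± 0.20, limma adjusted p = 0.11). The size of that difference was close to the controls' own median of -0.50.

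Among the receptor-type cyclases, 0 rose and 2 fell of 27, the median difference was -0.37, and 8 exceeded the no-target level on all PVD and OLL arrays. Over all genes 8.1% rose, 4.66% fell and 66.6% exceeded that level. At an unadjusted p under 0.05, limma had 0 higher and 9 lower, beside 16.8% and 14.7% of all genes. GCY-28 is an ortholog of the mammalian natriuretic peptide receptors and acts in AWC and AIA neurons. The signal of gcy-28 was 7.05, 7.36 and 8.13 in the PVD and OLL group, against 6.96, 6.85 and 6.88 in the whole animal. Its groups did not overlap, but the difference of 0.62 ± 0.29 did not pass the test (limma adjusted p = 0.186). Both other probe sets of gcy-28 also separated the groups without passing it. They differed by 0.95 ± 0.28 (limma adjusted p = 0.0606) and 1.06 ± 0.30 (limma adjusted p = 0.0548). When all probe sets of a gene were averaged before the fit, gcy-28 and pde-4 were called higher beside pde-2.

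**Figure D3:**
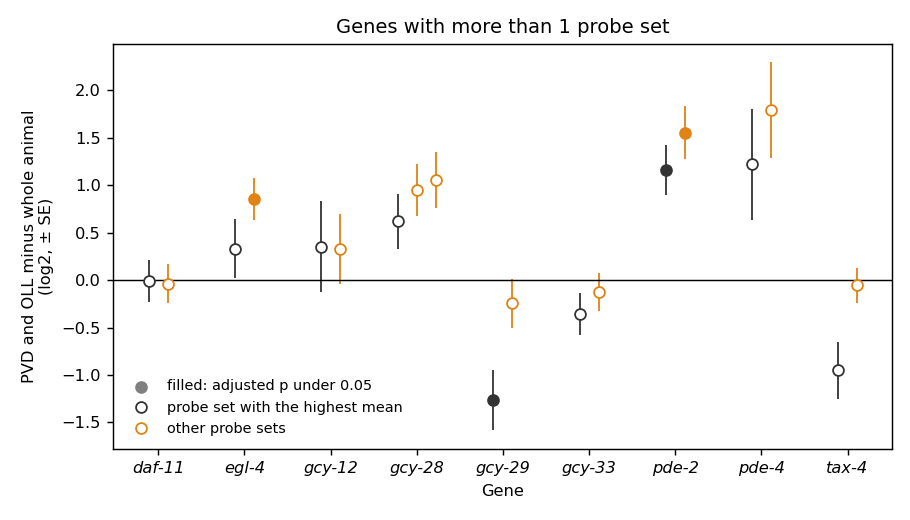
Difference, PVD and OLL minus whole animal on the log2 scale with limma's standard error, for each probe set of the 9 genes that have more than 1. Dark points are the probe sets with the highest mean, orange points the others, and filled points are called. The 3 probe sets of gcy-28 and both probe sets of pde-2 and pde-4 lie above 0, while those of gcy-29 and tax-4 differ in size.

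GCY-12 acts in the same body size pathway as PDE-2, and the brighter of its probe sets was read well above the controls. Its signal was 6.05, 5.95 and 4.37 in the PVD and OLL group, against 5.66, 5.01 and 4.66 in the whole animal. PVD and OLL replicate 3 was the lowest of the 6 arrays (0.35 ± 0.48, limma adjusted p = 0.635). The other gcy-12 probe set was dimmer, and exceeded the no-target level on 3 PVD and OLL arrays and 1 whole animal array. It differed by 0.32 ± 0.37 with overlapping groups (limma adjusted p = 0.563). The signal of gcy-11 was 3.84, 3.46 and 4.66 in the PVD and OLL group, against 4.94, 4.43 and 2.74 in the whole animal, so whole animal replicate 3 was lowest and the spread within groups exceeded the difference of -0.05 ± 0.57. DAF-11 and ODR-1 are cyclases of olfactory and pheromone-sensing neurons. daf-11 gave 3.04, 3.30 and 2.87 in the PVD and OLL group, against 2.87, 3.36 and 3.01 in the whole animal (-0.01 ± 0.22), and its other probe set differed by -0.04 ± 0.20. odr-1 gave 3.00, 3.07 and 2.95 in the PVD and OLL group, against 3.94, 3.32 and 3.63 in the whole animal. Its groups did not overlap, and it exceeded the no-target level on 3 PVD and OLL arrays and 2 whole animal arrays (-0.62 ± 0.22, limma adjusted p = 0.096).

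The cyclases known from AFD were dim in the PVD and OLL group. The signal of gcy-8 was 3.04, 2.76 and 3.00 in the PVD and OLL group, against 4.31, 4.86 and 2.74 in the whole animal. Whole animal replicates 1 and 2 were high, while replicate 3 lay just below every PVD and OLL array (-1.04 ± 0.50, limma adjusted p = 0.191). gcy-23 gave 2.84, 2.04 and 2.21 in the PVD and OLL group, against 3.13, 2.78 and 3.66 in the whole animal (-0.83 ± 0.31, limma adjusted p = 0.115). The third AFD cyclase, gcy-18, differed by -0.47 ± 0.27 with overlapping groups (limma adjusted p = 0.27). Of 4 other AFD markers limma called 0 in either direction, beside 12.8% of all genes, with 0 at an unadjusted p under 0.05. On all PVD and OLL arrays 2 of the 4 exceeded the no-target level, beside 66.6% of all genes.

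None of the 9 cyclases known from ASE neurons (gcy-1, gcy-3, gcy-4, gcy-5, gcy-6, gcy-7, gcy-14, gcy-20 and gcy-22) exceeded the no-target level on all arrays of either group, and 6 of them exceeded it on no array at all. Limma called 0 of the 9, beside 12.8% of all genes, with a median difference of -0.32. Before adjustment, p was under 0.05 for 0 that were higher and 3 that were lower, beside 16.8% and 14.7% of all genes. The 3 were gcy-3, gcy-6 and gcy-20, with differences of -0.69, -0.46 and -0.73. Of 5 other ASE markers 1 rose and 0 fell, beside 8.1% and 4.66% of all genes. The riser was die-1, by 1.49 ± 0.29 (limma adjusted p = 0.0184). Of the 5 markers 4 lay above 0 and 1, lim-6, below it at -0.15, with a median difference of 0.58. che-1 exceeded the no-target level on 0 arrays of either group and differed by 0.01 ± 0.19. On gcy-20, the PVD and OLL arrays read 2.11, 2.52 and 2.35, against 3.35, 3.05 and 2.77 in the whole animal, and 1 array of each group was above its level. gcy-22 gave 2.45, 2.43 and 1.94 in the PVD and OLL group, against 2.42, 1.78 and 2.17 in the whole animal, and differed by 0.15 ± 0.25.

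Both receptor-type cyclases called lower lay at the edge of detection. The signal of gcy-29 was 2.49, 2.42 and 2.11 in the PVD and OLL group, against 4.31, 3.33 and 3.18 in the whole animal, where replicate 1 stood above the others. It was above the no-target level on 2 arrays of each group and differed by -1.26 ± 0.32 (limma adjusted p = 0.0406), inside the range of the no-target controls. Dropping 1 array ended the call in 5 of 6 fits (limma adjusted p from 0.0323 to 0.118), and the other gcy-29 probe set differed by -0.25 ± 0.25 (limma adjusted p = 0.523). In all, 11 of 18 alternatives ended it, among them the spike scale (-0.02, limma adjusted p = 0.967), centring on the no-target controls (limma adjusted p = 0.0936), cyclic loess (0.0524) and a second quantile normalization (0.0684). gcy-19 read 2.08, 2.04 and 2.15 in the PVD and OLL group, against 3.03, 3.09 and 2.84 in the whole animal. No array of either group exceeded its own no-target level, so no fold is given for gcy-19. Its difference of -0.90 ± 0.18 (limma adjusted p = 0.0204, and up to 0.0926 in the 4 of 6 fits in which dropping 1 array ended the call) lay inside the controls' range, and it was 0.34 on the scale of the bioB and bioC spikes.

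The remaining receptor-type cyclases did not pass the test. gcy-13 read 2.76, 2.89 and 2.48 in the PVD and OLL group, against 2.27, 2.55 and 2.66 in the whole animal, and gcy-17 read 2.50, 2.47 and 2.57 against 2.75, 3.26 and 2.25. Both genes exceeded the no-target level on 3 PVD and OLL arrays and 0 whole animal arrays, with overlapping groups and differences of 0.22 ± 0.21 and -0.24 ± 0.27. Below the level on every array were gcy-9, which BAG neurons need to sense carbon dioxide, at -0.31 ± 0.25, gcy-15 at -0.37 ± 0.18, gcy-21 at -0.41 ± 0.19, gcy-25 at -0.53 ± 0.18 and gcy-27 at -0.77 ± 0.24. Limma called none of these 5, although gcy-25 and gcy-27 had an unadjusted p under 0.05. gcy-2, which the RefSeq gene table lists as a pseudogene, gave 2.97, 2.37 and 1.63 in the PVD and OLL group, against 1.91, 2.08 and 2.31 in the whole animal (0.22 ± 0.34). A probe set shared by gcy-15 and gcy-21, left out of the 46 genes, exceeded the no-target level on all 6 arrays. It read 4.02, 4.20 and 4.71 in the PVD and OLL group, against 4.27, 4.05 and 3.67 in the whole animal (0.32 ± 0.26, limma adjusted p = 0.423), and which of the 2 genes it reports cannot be told apart.

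**Figure D4:**
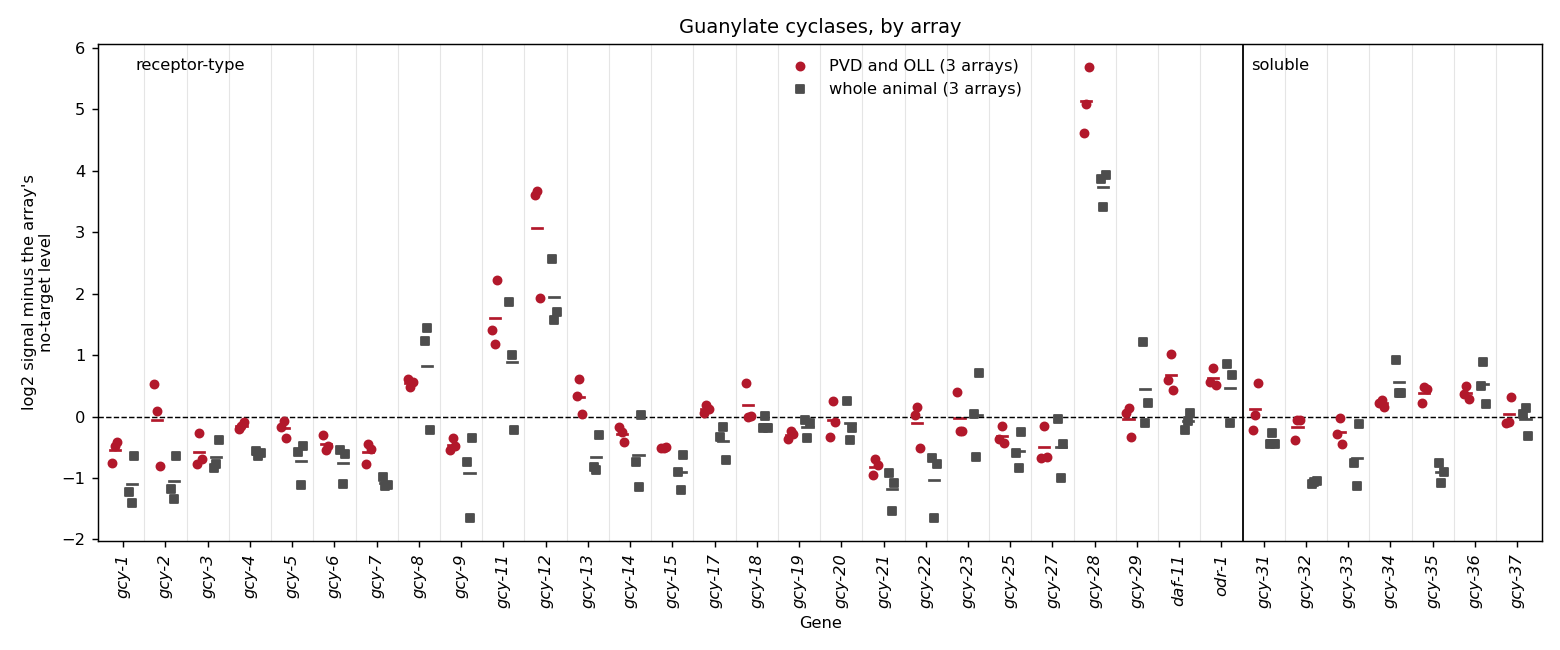
Signal minus the no-target level of the same array, log2, for the 27 receptor-type and 7 soluble guanylate cyclases. Points are single arrays, 3 PVD and OLL (circles, left) and 3 whole animal (squares, right), bars are group means and the dashed line is the no-target level. Apart from gcy-28, gcy-12 and gcy-11, and gcy-8 and gcy-29 on 1 or 2 whole animal arrays, the points lie within about 1 unit of the line or below it.

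Of the 7 soluble cyclases 0 rose and 1 fell, beside 8.1% and 4.66% of all genes, with a median difference of -0.36. Before adjustment, limma's p was under 0.05 for 1 that was higher and 3 that were lower, beside 16.8% and 14.7% of all genes. Most soluble cyclases act in the oxygen-sensing neurons, where pairs of subunits bind oxygen. The signal of gcy-34 was 2.66, 2.54 and 2.59 in the PVD and OLL group, against 4.01, 3.81 and 3.34 in the whole animal. Every array of both groups was above its no-target level, and the groups did not overlap. gcy-34 differed by -1.12 ± 0.23 (limma adjusted p = 0.0203), a 2.17-fold lower signal, although the difference was 0.12 on the scale of the bioB and bioC spikes and -0.67 (limma adjusted p = 0.0508) with arrays centred on the no-target controls. The difference of -1.12 lay inside the controls' range, -1.28 to -0.15. On the PVD and OLL arrays gcy-34 was only 0.22, 0.27 and 0.15 above the no-target level. Dropping 1 array ended the call in 4 of 6 fits (limma adjusted p from 0.0121 to 0.0871).

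gcy-36, which acts with gcy-35 in the response to rising oxygen, gave 2.80, 2.77 and 2.72 in the PVD and OLL group, against 3.59, 4.32 and 3.16 in the whole animal. It too was above the no-target level on every array, with no overlap, and did not pass the test (-0.93 ± 0.30, limma adjusted p = 0.0806). The signal of gcy-35 ran the other way, with 2.65, 2.75 and 2.88 in the PVD and OLL group, against 2.33, 2.35 and 2.06 in the whole animal. Above the level on 3 PVD and OLL arrays and 0 whole animal arrays, gcy-35 separated the groups by 0.51 ± 0.19 (limma adjusted p = 0.114). The whole animal no-target level was higher than the PVD and OLL signal of gcy-35, so no fold above 1 against that level could be given. The difference between gcy-35 and gcy-36 in response was not tested.

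Of the other soluble cyclases, gcy-37 gave 2.33, 2.19 and 2.76 in the PVD and OLL group, against 3.13, 3.57 and 2.63 in the whole animal (-0.68 ± 0.29, limma adjusted p = 0.149). gcy-31, gcy-32 and gcy-33 differed by -0.27, 0.14 and -0.36, and none exceeded its no-target level on a whole animal array. Only gcy-31 did so on PVD and OLL arrays, namely on 2. Of 4 other markers of URX, AQR and PQR and 5 other markers of BAG, limma called 1 higher, egl-13, and 0 lower, and before adjustment the counts at p under 0.05 were also 1 and 0. Over all genes 8.1% were called higher and 4.66% lower, and before adjustment the shares were 16.8% and 14.7%. Together gcy-35, cng-1, gcy-13 and gcy-17 were the 4 genes of the 46 above the no-target level on every PVD and OLL array and no whole animal array, beside 4.56% of all genes. Their PVD and OLL means, from 2.51 to 2.82, lay below the level of every whole animal array, 2.95 to 3.43. Of the 4, gcy-17 read lower in the PVD and OLL group (-0.24), so the pattern alone does not show more signal there.

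Genes known to work with the cGMP pathway were read mostly above the controls. From a list of 39 genes, 36 had a probe set of their own. On all PVD and OLL arrays 28 of the 36 exceeded the no-target level, 77.8% beside 66.6% of all genes. On all whole animal arrays 20 did, 55.6% beside 49.9%. Of the 36 genes 6 rose and 0 fell, beside 8.1% and 4.66% of all genes, and the median difference was 0.30. At an unadjusted p under 0.05, limma had 14 higher and 4 lower, beside 16.8% and 14.7% of all genes. Those called were daf-28, an insulin-like peptide gene regulated by sensory input, at 1.81 ± 0.29 (limma adjusted p = 0.0103), eat-16, a regulator of G protein signalling, at 1.76 ± 0.18 (limma adjusted p = 0.00439), and mef-2, a transcription factor gene that acts with EGL-4 and KIN-29 in chemoreceptor expression, at 1.53 ± 0.32 (limma adjusted p = 0.0235). The T-box gene tbx-2, needed for olfactory adaptation, rose by 1.51 ± 0.25 (limma adjusted p = 0.0108). The list also held nhr-88, a nuclear hormone receptor gene, at 1.40 (limma adjusted p = 0.0102), and odr-4, needed to carry chemoreceptors to the cilium, at 0.997 (limma adjusted p = 0.0425). Without PVD and OLL replicate 2, 3 genes of the list were called. Partners that did not pass included pkg-2, which encodes a second cGMP-dependent kinase (-0.54 ± 0.22, limma adjusted p = 0.143), daf-25, needed to bring cyclases into cilia (0.66 ± 0.39, limma adjusted p = 0.275), and tax-6, the calcineurin catalytic subunit gene (1.06 ± 0.32, limma adjusted p = 0.0665).

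Markers of other cells moved as well, and their part in these differences was not tested. Over all genes 8.1% rose and 4.66% fell. Of 7 hypodermal markers 4 rose and 1 fell, with summed linear signals from 3175 to 4896 for PVD and OLL, against 4770 to 4962 for the whole animal. The fall was col-19, with 3.54, 3.24 and 3.63 in the PVD and OLL group, against 5.94, 5.27 and 7.96 in the whole animal. Of 6 body wall muscle markers 2 rose and 0 fell, with sums from 8153 to 10020 against 5637 to 9237. Of 6 intestinal markers 0 rose and 2 fell, with sums from 955 to 1087 against 1080 to 2725. The falls were vit-2 and vit-6, while 4 of the 6 lay above 0 (median 0.23). In the whole animal vit-2 read 7.06, 7.15 and 9.98 and vit-6 read 7.15, 6.67 and 9.88, so replicate 3 was highest for both. Each of the hypodermal, muscle and intestinal markers exceeded the no-target level on all PVD and OLL arrays. Markers of ASI, ASJ and ASK, neurons in which daf-11 acts, gave 1 rise (daf-28) and 1 fall (sra-9) among 7. Of the 7 markers 3 lay above 0 and 4 below, with a median difference of -0.51. Their sums ran from 187 to 231 for PVD and OLL, against 80.1 to 121 for the whole animal. The brightest of the 7 was daf-28, with log2 means of 7.24 for PVD and OLL and 5.43 for the whole animal. It is also one of the pathway genes called above. sra-9 exceeded the no-target level on 0 arrays of either group. In 4 further lists 1 marker rose and 0 fell. pha-4 of 5 pharyngeal markers rose by 3.23 ± 0.57 and itx-1 of 6 glial markers by 1.34 ± 0.22, with list medians of 0.36 and 0.24. nhr-79 of 6 markers of AWA, ASH and ADL rose by 1.36 ± 0.25, but 5 of the 6 lay below 0 (median -0.26). ceh-36 of 5 markers of AWC and AWB rose by 0.96 ± 0.26, but 4 of the 5 lay below 0 (median -0.17). The signal of ceh-36 was dim, with means of 2.66 for PVD and OLL and 1.70 for the whole animal. It exceeded the no-target level on 3 PVD and OLL arrays and 0 whole animal arrays. Of 5 germline markers limma called 0 in either direction, with 0 at an unadjusted p under 0.05.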

How the data were processed

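Per the labels, RNA was amplified, labelled with biotin and hybridised to 1-colour Affymetrix C. elegans arrays, 1 sample per array. The deposited table holds 1 log2 value per probe set and array, which the authors summarised with RMA, per the submitters' processing notes. The sources used here give no software version. No label states the log base, and log2 is read from the values, which lie between 1.21 and 13.9. Scanner files and scan dates were not used here. Quantile normalization within RMA assumes like signal distributions in both RNAs.

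Of 22625 probe sets, 77 controls were left out of the tests. Gene names came from the array annotation, with symbols updated from RefSeq (assembly WBcel235): 20766 probe sets had 1 gene, 887 several and 895 none. Of the 46 genes, 9 had several probe sets. The suffixes _s_at and _x_at mark probe sets that may bind more than 1 transcript, so near-identical cyclases are uncertain.

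Groups were compared with limma 3.58.1 (lmFit, eBayes) in R 4.3.3, two-sided, with Benjamini-Hochberg adjustment over 22548 probe sets. The code was tested on simulated data. The titles call only the PVD and OLL samples biological replicates, so p-values measure only how these samples vary, which may be technical. With 3 arrays per group their number limits the precision. A fold of means against the no-target level was given only where 1 group lay below it and the other above it on all arrays. That fold also had to exceed 1, which a second pde-4 probe set met without being called.

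The genes, lists and tests were chosen with earlier results of these data known. Named were every called gene, all members that are not gcy genes, members with a difference of at least 1 and signal above the level in a group, the 5 with the highest mean, and the cyclases at either end of the differences; other cyclases named were chosen after their values were seen. From each other list up to 4 called genes were to be named, and the pathway list names all 6. Alternatives were other scalings, filters, probe set choices, a variance trend, a replicate block and arrays left out. The sample titles number the replicates but state no pairing between groups, so the main fit used none. Correlations of same-numbered deviations were -0.05, -0.07 and -0.10, and those of other pairs ran from -0.06 to 0.08. With 3 arrays per group they cannot decide whether the samples were paired. No sequences were used here.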

Additional observations from a re-analysis of the deposited data

How the results depend on the processing

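The difference of pde-2 was above 0 under all 19 alternatives and lost its call under 7 of them. With arrays centred on the bioB and bioC controls, 12752 probe sets were called higher and 66 lower, 19 of the 46 genes were higher and 0 lower, their median was 0.97, 28 pathway partners were higher, and gcy-19 and gcy-34 turned to 0.34 and 0.12. With centring on the no-target controls, chosen after seeing the data, the counts were 5647 and 339, 6 genes higher and 0 lower, a median of 0.17 and 17 partners higher. With centring on array medians, 1952 probe sets, 11 of the 46 genes and 2 partners were lower, and the median was -0.48. Repeated quantile normalization gave 1192 probe sets and 0 genes higher and a median of -0.10, and cyclic loess gave 1195, 0 and -0.10. Relative to the median of all probe sets, the median of the 46 genes was -0.25 on the deposited values, which centring cannot change, -0.09 after quantile normalization and -0.10 after cyclic loess.

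When the _s_at and _x_at probe sets were dropped, 1186 probe sets were higher and 600 lower, and 2 genes were higher. With only probe sets above the no-target level in a group, 1 gene was lower and the median of the 21 genes left was 0.14, a turn of sign that the filter itself can set, since all 21 passed on the PVD and OLL arrays and 10 on the whole animal arrays; without the dimmest 25% it was -0.11 over 27 genes. A variance trend gave 7 genes lower. Averaged probe sets gave 3 genes higher, and the lowest probe set of each gene 2, with a median of -0.24. At the median of the no-target controls as the level, 33 genes exceeded it on all PVD and OLL arrays and 26 on all whole animal arrays.

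With the replicate block, 1224 probe sets were higher and 405 lower, and 0 of the 46 genes were called in either direction; limma adjusted p-values of the 4 genes called without it lay between 0.0509 and 0.0649. Whether the replicate numbers pair the samples is not known. With 1 array left out, 577 to 2017 probe sets were higher and 208 to 1222 lower, 0 to 1 genes higher and 0 to 7 lower, the median lay between -0.36 and -0.23, and 3 to 6 partners were higher. With replicate 3 of both groups left out, chosen after seeing the data, the counts were 3300 and 1842, 2 genes higher and 9 lower, a median of -0.43 and 10 partners higher. Signal near the no-target level limits what can be read for most cyclases.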

Other observations

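Some of the genes lie next to each other in the RefSeq gene table of assembly WBcel235. pde-1 and gcy-35 are adjacent, with 0 genes between them; gcy-35 separated the groups by 0.51 ± 0.19, and pde-1 differed by 0.09 ± 0.27. gcy-3, gcy-2 and gcy-1 follow each other with 0 genes between, and gcy-4 and gcy-5 have 1 gene between them. The differences of gcy-3 and gcy-1 were -0.69 and -0.23, those of gcy-4 and gcy-5 were -0.32 and -0.24, and that of gcy-2 was 0.22. The array names come from gene models, and cross-matching between such neighbours was not tested.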
